A study of Mus musculus with 2 samples.

Results

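The 5′ untranslated region (5′ UTR) is the stretch of an mRNA between its capped 5′ end and the start codon. Among 160430 positions called as N6-methyladenosine (m6A) in any of 17 lists, 5333 lay in a 5′ UTR, on 3015 genes. A position was counted as one genome base and strand, and it was placed on the protein-coding transcript with the longest coding sequence among those that contain it. It was kept where it lay 5′ of the annotated start codon of that transcript. By the same rule 88927 positions lay in the coding sequence and 61627 in the 3′ UTR, and the other 4543 lay on no coding transcript or 5′ of a coding sequence without an annotated start codon.

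The lists come from native RNA of 129 mouse embryonic stem cells, read by Nanopore direct RNA sequencing. There was 1 library from wild-type cells (WT) and 1 from cells without Mettl3 (KO). The KO cells had lost exons 5 to 7 on both alleles through CRISPR-Cas9 editing, and carried cassettes for resistance to puromycin and to hygromycin in their place. ELIGOS, Epinano, m6Anet, MINES, Nanom6A, Tombo and xPore each gave a WT list and a KO list, while DiffErr, DRUMMER and Nanocompore contrasted both libraries and gave 1 comparison list each. MINES starts from the output of Tombo, Nanom6A from signals that Tombo aligned to the bases, and m6Anet, xPore and Nanocompore from signals aligned by Nanopolish, while xPore models both libraries together. Tools that list the same position are therefore not independent of each other. The lists hold positions without read numbers or methylation rates, so the depth behind a position is unknown. With 1 library per group no test across conditions was possible, positions are not replicates, and all intervals are 95% intervals that cover counting error only.

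Mettl3 is the catalytic subunit of the complex that writes most m6A in mRNA, mainly at adenosines in the RRACH context (R is A or G, H is A, C or T). In mammalian mRNA m6A is dense around the stop codon and sparse in 5′ UTRs, where it has been linked to cap-independent initiation of translation. Next to the cap, a related mark, m6Am, is written by a different enzyme, Pcif1. Direct RNA reads start at the 3′ end of the RNA, so the 5′ UTR is the last part to be read and is missed by reads that break off early.

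The target of the knockout was looked at first. In Mettl3 the WT lists held 9 positions in exons 1 to 7 and the KO lists 0, while in exons 8 to 11 the WT lists held 4 and the KO lists 5. None of them lay in the 5′ UTR of Mettl3. Exons 5 to 7 are gone from the KO cells, so the KO lists could hold no position in that part of the first group. Elsewhere, lists without coverage cannot separate an absent mark from too few reads.

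Positions in 5′ UTRs were a small share of every list. The WT lists together held 4043 of them and the KO lists 3585, while the 3 comparison lists held 30, all of which were also in a WT list. Among WT lists the share ran from 1.86% for xPore (1.53% to 2.26%) and 2.04% for ELIGOS (1.71% to 2.43%) to 3.31% for Tombo (3.18% to 3.44%). For each of the 7 tools the share in the KO list was above that in the WT list. It rose from 2.04% to 3.88% for ELIGOS (3.02% to 4.96% in KO), from 2.41% to 3.18% for m6Anet (2.90% to 3.49% in KO) and from 3.09% to 3.88% for Epinano (3.59% to 4.20% in KO). For Nanom6A, at 2.13% and 2.37%, and for xPore, at 1.86% and 2.51%, the intervals of both lists overlapped. The lists made by comparing both libraries held the lowest shares, with 22 positions of Nanocompore (1.04%, 0.691% to 1.58%), 10 of DiffErr (0.571%, 0.310% to 1.05%) and 6 of DRUMMER (0.474%, 0.217% to 1.03%).

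Whether 5′ UTRs were listed less than the rest was asked per RRACH position. The listing rate is the share of the RRACH positions of a region that at least 1 list holds, over transcripts with at least 1 listed position. In WT lists it was 15.3% of 26348 RRACH positions in 5′ UTRs (14.9% to 15.8%), against 24.9% over all regions. The difference was −10.8 percentage points from the coding sequence, at 26.1% (−11.3 to −10.3), and −9.06 points from the 3′ UTR, at 24.4% (−9.53 to −8.58). In KO lists the rate was 13.6% (13.2% to 14.0%), against 20.7% over all regions, which is −9.13 points from the coding sequence (−9.57 to −8.68) and −5.41 points from the 3′ UTR (−5.86 to −4.96). In comparison lists it was 0.114% (0.0798% to 0.162%), against 0.618% over all regions, 0.431% in the coding sequence and 0.928% in the 3′ UTR. Thus, without matching for distance from the 3′ end, 5′ UTRs were listed less than both other regions in all 3 kinds of list. The gap to the 3′ UTR was widest, as a ratio of rates, in the comparison lists. Over all coding transcripts, with or without a listed position, the rates fell to 4.36%, 3.87% and 0.0324%, and without Tombo to 10.1% in WT and 7.17% in KO, each still below both other regions.

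The same order was seen in most single lists. In the WT list of each of the 7 tools the 5′ UTR rate was below those of both other regions, with intervals of the difference that left out 0. For Tombo it was 9.43% against 15.5% in the coding sequence, and for ELIGOS 0.463% against 0.885%. In KO lists it was below the coding sequence for all 7 tools, while against the 3′ UTR the interval of the difference held 0 for MINES (−0.264 to 0.0412 points) and ELIGOS (−0.107 to 0.0180 points). Nanocompore listed 0.0835% of 5′ UTR positions (0.0551% to 0.126%) and 0.621% of 3′ UTR positions.

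Distance from the 3′ end, where reads begin, went along with the rate. This split was chosen after seeing the data. RRACH positions of 5′ UTRs within 500 nt of the annotated 3′ end were listed at 43.3% in WT (71 of 164, 35.9% to 50.9%), and those over 4000 nt away at 9.83% (9.18% to 10.5%). At up to 500 nt the difference from the coding sequence was −4.49 points (−11.9 to 3.20), an interval that holds 0, and the difference from the 3′ UTR was 10.6 points (3.24 to 18.3). Between 1000 and 2000 nt from the 3′ end, WT lists held 20.4% of 5′ UTR positions and 21.9% of 3′ UTR positions, a difference of −1.51 points (−2.59 to −0.402). There the KO lists held 1113 of 5859 5′ UTR positions and 16.6% of the 3′ UTR positions, a difference of 2.41 points (1.37 to 3.49). In the comparison lists the same positions were listed at 0.188% and 0.605%, a difference of −0.417 points (−0.527 to −0.255). At this distance the 5′ UTR therefore lay below the 3′ UTR in WT and comparison lists and above it in KO lists. The same signs held between 2000 and 4000 nt, with −1.97 points in WT (−2.71 to −1.20) and 1.28 points in KO (0.593 to 1.99). Between 500 and 1000 nt the interval held 0 in WT (−3.96 to 0.357) and KO (−1.76 to 2.36), as it did over 4000 nt in WT (−1.29 to 0.377) and KO (−0.797 to 0.713). In WT lists the order of the 2 regions thus differed between distances. In KO lists the 5′ UTR lay above the 3′ UTR at up to 500 nt, by 14.1 points (6.89 to 21.8). At no distance did the KO interval lie wholly below 0. In comparison lists the 5′ UTR lay below the 3′ UTR at each distance over 500 nt. Between 1000 and 2000 nt the coding sequence was listed at 32.8% in WT, 28.9% in KO and 0.553% in comparison lists. In WT and KO lists the 5′ UTR lay below the coding sequence at each distance over 500 nt. In comparison lists the interval of that difference held 0 between 500 and 1000 nt (−0.708 to 0.0140) and over 4000 nt (−0.0891 to 0.00267). On transcripts of at most 1500 nt the 5′ UTR rates were 24.8% in WT, 23.0% in KO and 0.331% in comparison lists, and each remained below the coding sequence, at 48.3%, 43.1% and 1.75%. How far read coverage sets these rates was not tested.

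The KO list was nearly as long as the WT list in 5′ UTRs for several tools. Tombo listed 2486 positions in WT and 2446 in KO, a ratio of 0.984 (0.930 to 1.04), and Nanom6A 714 and 659, a ratio of 0.923 (0.829 to 1.03). MINES listed 434 and 375 (0.864, 0.751 to 0.994), and m6Anet 565 and 433 (0.766, 0.675 to 0.870). The ratio was lower for xPore, with 100 and 60 (0.600, 0.428 to 0.835), for ELIGOS, with 122 and 60 (0.492, 0.355 to 0.675), and for Epinano, with 1376 and 587 (0.427, 0.387 to 0.470). The cut-off behind each list is not stated with it, and how far cut-offs set these ratios was not tested. The intervals above take both lists as separate counts, although many positions were in both. Counting only positions in 1 of the 2 lists, Tombo had 1012 in WT alone and 972 in KO alone (ratio 0.960, 0.879 to 1.05) and Nanom6A had 203 and 148 (0.729, 0.586 to 0.906). By that count the interval held 1 for Tombo alone, and the other 6 tools listed fewer 5′ UTR positions in KO.

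In the 3′ UTR the fall from WT to KO was larger for each of the 7 tools. It left a ratio of 0.172 for ELIGOS, 0.334 for Epinano, 0.356 for xPore, 0.439 for m6Anet, 0.593 for MINES, 0.764 for Nanom6A and 0.825 for Tombo. Expressed as the KO share of both lists, the 5′ UTR exceeded the 3′ UTR by 4.40 points for Tombo (2.94 to 5.86), 12.9 points for m6Anet (9.74 to 16.0) and 18.3 points for ELIGOS (11.8 to 25.5). Against the coding sequence the same difference was 4.76 points for Epinano (2.71 to 6.89) and 6.93 points for ELIGOS (0.330 to 14.2), and its interval held 0 for the other 5 tools. By this measure the 5′ UTR lists were closer to those of the coding sequence than to those of the 3′ UTR. Without the positions in both lists, the difference from the 3′ UTR left out 0 for 6 tools and held it for xPore (−4.17 to 15.0 points). The difference from the coding sequence then left out 0 for MINES (2.02 to 11.1), Nanom6A (0.322 to 10.8) and Epinano (2.78 to 7.22) and held it for ELIGOS (−0.621 to 14.7), so which tools differed from the coding sequence depended on how shared positions were counted.

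Many 5′ UTR positions appeared in a WT list and in a KO list, of any tool or of the same tool. Counting lists of any tool, 2295 positions were in both. That is 56.8% of the WT positions (55.2% to 58.3%) and 64.0% of the KO positions (62.4% to 65.6%). The share of WT positions was −4.75 points from the coding sequence, at 61.5% (−6.33 to −3.19). From the 3′ UTR, at 56.2%, it was 0.562 points (−1.03 to 2.14), within counting error of no difference. The share of KO positions was below those of the coding sequence, at 70.8%, and the 3′ UTR, at 72.0%. Nanom6A listed 71.6% of its WT positions again in KO (68.2% to 74.8%), against 64.9% over all regions. Tombo listed 59.3% again (57.3% to 61.2%), against 60.1% over all regions. For xPore the share was 44.0% (34.7% to 53.8%) against 24.7%, for m6Anet 40.9% (36.9% to 45.0%) against 34.5%, and for MINES 37.6% (33.1% to 42.2%) against 40.5%. ELIGOS listed 22.1% again (15.7% to 30.3%) against 11.2%, and Epinano 19.3% (17.3% to 21.4%) against 16.6%.

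Set against the 3′ UTR, the share of WT positions listed again was higher in the 5′ UTR for 5 tools. The difference was 26.9 points for xPore (17.5 to 36.8), 13.8 for ELIGOS (7.30 to 22.0), 12.5 for Nanom6A (9.02 to 15.8), 12.3 for m6Anet (8.24 to 16.5) and 3.66 for Tombo (1.63 to 5.66). For MINES (−3.03 to 6.40) and Epinano (−0.0745 to 4.21) the interval held 0. Against the coding sequence the sign differed between tools, from −6.42 points for MINES (upper bound −1.64) and −3.88 for Tombo (−5.88 to −1.91) to 7.51 for ELIGOS (0.889 to 15.8) and 9.95 for xPore (0.417 to 19.9). As a share of the KO list the overlap was lower in the 5′ UTR than in the 3′ UTR for 4 tools, by −17.2 points for MINES (−22.4 to −11.9), −11.7 for m6Anet (−16.6 to −6.85), −7.19 for Tombo (−9.23 to −5.18) and −6.55 for Epinano (−10.7 to −2.34). It was higher by 25.3 points for xPore (12.6 to 35.3), and the interval held 0 for ELIGOS (−15.9 to 9.80) and Nanom6A (−3.17 to 3.39). The 2 shares thus ran opposite ways for Tombo and m6Anet. The differences as a share of WT depended on transcript length. On transcripts of at most 1500 nt the interval of the difference from the 3′ UTR left out 0 for xPore (18.3 to 56.6), m6Anet, at 19.1 points (10.7 to 27.6), ELIGOS (4.96 to 37.7) and Epinano, at 8.05 (2.34 to 14.4). It held 0 for Nanom6A, at 5.21 (−1.11 to 10.9), Tombo (−1.49 to 7.74) and MINES, at −7.38 (−18.4 to 5.13). From the coding sequence the difference there was −21.0 points for MINES (−31.7 to −8.70), −8.36 for Tombo (−12.9 to −4.08) and 8.14 for Epinano (2.44 to 14.5), and its interval held 0 for the other 4 tools, with a change of sign for Nanom6A from 2.73 to −4.33.

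A further 1290 5′ UTR positions were in KO lists alone. They made up 36.0% of the KO positions (34.4% to 37.6%), which exceeded the coding sequence, at 29.2%, by 6.75 points (5.15 to 8.37) and the 3′ UTR, at 28.0%, by 7.97 points (6.35 to 9.62). At least 2 tools listed 156 of the 1290 in KO, or 12.1% (10.4% to 14.0%), against 9.96% in the coding sequence, a difference of 2.14 points (0.411 to 4.08), and 9.45% in the 3′ UTR, a difference of 2.64 points (0.885 to 4.61).

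Support from many tools was rarer in 5′ UTRs than in the other regions, while the share with a single tool was close to that of the coding sequence. Of the 4043 positions in a WT or comparison list, 1 tool listed 2751 (68.0%), which is −0.123 points from the coding sequence (−1.62 to 1.34) and 7.37 points from the 3′ UTR (5.86 to 8.86). Listed by 2 tools were 956, by 3 tools 239 and by 8 tools 1. The share listed by at least 6 tools was 0.470% (19 positions, 0.301% to 0.733%), which is −0.612 points from the coding sequence (−0.798 to −0.339) and −2.98 points from the 3′ UTR (−3.22 to −2.68). In no KO list were 1748 of the 4043, or 43.2% (41.7% to 44.8%), against 40.8% over all regions. That share differed by 4.75 points from the coding sequence (3.19 to 6.32) and by −0.563 points from the 3′ UTR (−2.14 to 1.03).

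The positions that the comparison of WT with KO singled out were few. At least 1 comparison list held 30 of the 4043, or 0.742% (0.520% to 1.06%), against 2.48% over all regions. This was −0.907 points from the coding sequence (−1.15 to −0.578) and −3.05 points from the 3′ UTR (−3.33 to −2.69). The share rose to 1.13% without Tombo (−1.35 and −3.94 points from the other regions) and to 1.33% on transcripts of at most 1500 nt (11 of 826 positions), where the differences widened to −2.28 points (−2.99 to −1.17) and −8.16 points (−9.21 to −6.84). The 30 positions lay on 26 genes, with 3 in Ftl1 and 2 each in Amd1 and Ube2r2. All 3 comparison tools listed 2 of them, 2 tools listed 4 and 1 tool listed 24. Nanocompore and DiffErr shared 3 positions (13.6% of the first list and 30.0% of the second), Nanocompore and DRUMMER also 3 (13.6% of 22 and 3 of 6), and DiffErr and DRUMMER 4 (4 of 10 and 66.7%). Nanom6A listed 25 of the 30 in WT, against 17.7% of the 4043, m6Anet 21 against 14.0%, Tombo 24 against 61.5%, ELIGOS 11 against 3.02% and xPore 10 against 2.47%. Epinano listed 13 of the 30 (27.4% to 60.8%), against 34.0%, and MINES 1 (0.591% to 16.7%), against 10.7%, intervals that hold the share of the 4043. In no KO list were 6 of the 30 (9.51% to 37.3%), against 43.2% of the 4043, so the larger part of them was also listed in KO. These shares are not matched for the number of tools. At least 4 tools listed 23 of the 30, while 68.0% of the 4043 were listed by 1 tool.

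The 2 positions listed by all 3 comparison tools lie on transcripts of 1 exon. Pcbp1 (ENSMUSG00000051695), which encodes a poly(C)-binding protein that acts in splicing, mRNA stability and translation, has a GGACT at 86525964 on the minus strand of chromosome 6 (1-based, GRCm38). It lies 49 nt before the start codon and 358 nt from the annotated 5′ end, in the only exon of 1830 nt. ELIGOS, Epinano, Nanom6A, Tombo and m6Anet also listed it in WT, so that 8 of the 10 tools did, and Nanom6A listed it in KO. Gtsf1l (ENSMUSG00000070708), related to the gametocyte-specific factor Gtsf1, has a GGACA at 163087587 on the minus strand of chromosome 2. It lies 26 nt before the start codon and 269 nt from the 5′ end of a transcript of 822 nt. ELIGOS, Epinano, Nanom6A and m6Anet listed it in WT and no tool listed it in KO.

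The bases around these and other positions of the comparison lists are given so that the 5-mers can be read in place. Each run holds 10 bases on either side of the listed adenosine on the mRNA strand, with the 5-mer in capitals. Pcbp1 covers 86525954 to 86525974 and Gtsf1l 163087577 to 163087597 on the chromosomes given above. The other runs are Ube2r2 (ENSMUSG00000036241) on chromosome 4 (plus strand, 41135949 to 41135969), Srsf2 (ENSMUSG00000034120) on chromosome 11 (minus strand, 116853008 to 116853028), Nudcd2 (ENSMUSG00000020328) on chromosome 11 (plus strand, 40733849 to 40733869) and Sqle (ENSMUSG00000022351) on chromosome 15 (plus strand, 59315727 to 59315747), all in exon 1.
Pcbp1: gccgcccaGGACTtgaccacg
Gtsf1l: gggcagcaGGACActtggctt
Ube2r2: gcgtgtgaGGACAgacagggg
Srsf2: acccacgaGGACTgtagctac
Nudcd2: gccagtttGGACTcttgcgca
Sqle: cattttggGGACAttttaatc

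The 4 genes added there were each supported by 7 tools in WT or the comparison. Ube2r2, a ubiquitin-conjugating enzyme, was listed at 41135959 by DiffErr, DRUMMER and 5 WT lists, and by MINES and Tombo in KO. DRUMMER also listed a GGACT of the same 5′ UTR at 41136033, 37 nt before the start codon. Srsf2, an SR splicing factor, was listed at 116853018, 89 nt before the start codon and 77 nt from the 5′ end, by DiffErr and DRUMMER and, in KO, by Nanom6A and m6Anet. Nudcd2, a co-chaperone with a NudC domain, was listed at 40733859 by DiffErr and by 3 tools in KO. Sqle, the squalene epoxidase of cholesterol synthesis, was listed at 59315737, 657 nt from the 5′ end and 108 nt before the start codon, by DiffErr and by no tool in KO.

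The positions with the most tools in WT or the comparison and with no KO list were next named by rule. After Gtsf1l, Pigyl and Sqle, each with 7 tools, came Rab5a and Tor1aip2 with 6. Pigyl, named for its likeness to a subunit of the GPI anchor pathway, has a GGACT at 22157847 on the plus strand of chromosome 9, 148 nt before the start codon. Rab5a, the GTPase of early endosomes, has a GGACT at 53483894 on the plus strand of chromosome 17, 19 nt before the start codon in exon 2 of 6, which Nanocompore listed. Tor1aip2, a membrane partner of torsin ATPases, has a GGACA at 156051549 on the plus strand of chromosome 1, in exon 3 of 7, listed by WT lists alone.

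With 5 tools and no KO list followed a second position in Tor1aip2, then Mkks, Gpat4, Nudcd2 and Alkbh5, none of them in a comparison list. Alkbh5, an m6A demethylase, has a GGACC at 60538397 on the plus strand of chromosome 11, 26 nt before the start codon and 420 nt from the 5′ end. Gpat4, an acyltransferase of glycerolipid synthesis, has a GGACT at 23190980 on the minus strand of chromosome 8, 100 nt before the start codon. The Nudcd2 position, a GGACA at 40733845, lies in the same exon as the GGACT at 40733859 that 3 tools listed in KO. The Mkks position, an AGACT at 136881432 on chromosome 2, lies in exons of more than 1 gene, and it is not in the 5′ UTR of every coding transcript there.

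Some positions were held by several KO lists. No 5′ UTR position was in the KO lists of more than 5 tools, and 3 were in those of 5. They lie in Noct, Pebp1 and Cdc42ep5. Pebp1, a phosphatidylethanolamine-binding protein, has a GGACT at 117287579 on the minus strand of chromosome 5, which lies 5 nt from the annotated 5′ end and 36 nt before the start codon, and 6 tools listed it in WT. Cdc42ep5, an effector of the GTPase Cdc42, has a GGACT at 4164602 on the minus strand of chromosome 7, listed by 2 tools in WT and 5 in KO. Nxt1, a cofactor of mRNA export, has a GGACC at 148672774 on the plus strand of chromosome 2, listed by 4 tools in WT and 4 in KO. None of these 4 genes had a 5′ UTR position in a comparison list.

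Along the 5′ UTR, the listing rate rose towards the start codon. In WT lists it was 24.8% of RRACH positions within 25 nt of the start codon (23.3% to 26.3%), 24.0% between 25 and 50 nt, 20.4% between 50 and 100 nt, 15.2% between 100 and 200 nt, 9.63% between 200 and 400 nt and 6.20% beyond 400 nt (5.52% to 6.96%). The KO lists followed the same course, from 22.4% within 25 nt (691 of 3081) to 5.18% beyond 400 nt (4.56% to 5.88%). Within 50 nt lay 34.0% of the WT positions (32.5% to 35.4%), 35.2% of the KO positions (33.6% to 36.8%) and 11 of the 30 comparison positions (36.7%, 21.9% to 54.5%), against 21.3% of the RRACH positions. Within 100 nt these shares were 56.2% in WT, 56.9% in KO and 53.3% in the comparison, against 10022 of the 26348 RRACH positions. The rate inside 50 nt exceeded that outside by 11.5 points in WT (10.3 to 12.8), 11.2 points in KO (10.1 to 12.4) and 0.104 points in the comparison (0.00355 to 0.262). Within 100 nt the interval of the comparison lists held 0 (−0.0106 to 0.179), and they held 4 of 3081 RRACH positions within 25 nt and 8 of 6163 between 100 and 200 nt. The course was therefore present in the lists of both libraries, and the comparison lists showed no steady rise.

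Tools differed in how near to the start codon their positions lay. The median distance in WT was 52.5 nt for Nanom6A and 54.5 nt for xPore, 79.0 nt for m6Anet, 88.0 nt for Tombo, 100.5 nt for MINES and ELIGOS and 102.0 nt for Epinano. Over RRACH positions the median was 144.0 nt. Among the tools with both lists the share within 50 nt was highest for Nanom6A, at 48.6% in WT (45.0% to 52.3%) and 49.8% in KO (46.0% to 53.6%), and for xPore, at 47.0% (37.5% to 56.7%) and 55.0% (42.5% to 66.9%).

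Near the start codon, the 2 positions with most tools within 20 nt both lie in Rab5a, each with 6 tools. After the GGACT described above, a GGACA of the same gene lies at 53483911, 2 nt before the start codon, so that its 5-mer reaches into the codon, and 1 tool listed it in KO. Dhx32, a helicase-like protein, has a GGACT 19 nt before the start codon on the minus strand of chromosome 7, at 133759721. Tmem50a has one 14 nt before it, at 134914890 on the minus strand of chromosome 4, 1 nt from an exon junction and listed by 4 tools in each library. The runs are given with the 5-mer in capitals. In the second Rab5a (ENSMUSG00000017831) run the start codon begins 2 bases after the listed adenosine. In the first Rab5a run and the Dhx32 (ENSMUSG00000030986) run it lies beyond the bases shown. The ATG that ends the Dhx32 run is not the annotated start codon. The Rab5a runs cover 53483884 to 53483904 and 53483901 to 53483921 in exon 2 and the Dhx32 run 133759711 to 133759731 in exon 2, on the strands given above.
Rab5a GGACT: gaaattagGGACTtctttaaa
Rab5a GGACA: taaaatttGGACAtggctaat
Dhx32: ggaggactGGACTgtggaatg

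Towards the cap the rate fell. In WT it was 7.64% within 25 nt of the annotated 5′ end (6.61% to 8.82%), 13.7% between 25 and 50 nt, 17.2% between 50 and 100 nt and 16.2% between 200 and 400 nt (15.3% to 17.1%), with 1168 of 6489 positions listed between 100 and 200 nt, and it was 13.2% beyond 400 nt. In KO it was 6.93% within 25 nt (5.95% to 8.06%) and 15.4% between 100 and 200 nt. Within 50 nt lay 11.9% of the WT positions (482 positions), 12.4% of the KO positions (11.3% to 13.5%) and 3 of the 30 comparison positions, against 17.1% of the RRACH positions. The rate inside 50 nt was −5.60 points from that outside in WT (−6.60 to −4.55) and −4.51 points in KO (−5.47 to −3.49). For the comparison lists the interval held 0 (−0.128 to 0.0782). The difference depended on the window. Within 100 nt it was −2.19 points in WT and −1.19 in KO. Within 200 nt it was 0.700 and 0.699, which lie within counting error of no difference. The annotated 5′ end need not be the start site used in these cells, and whether reads reached it was not tested.

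Of the 5 best supported positions within 50 nt of the 5′ end, 4 lay in GGACT and 1 in AGACT. After Pebp1 came Tcl1, a co-activator of Akt in stem cells, with a GGACT at 105222694 on the minus strand of chromosome 12, 23 nt from the 5′ end and 42 nt before the start codon. Nanocompore listed it along with 5 WT lists, and m6Anet listed it in KO. Jund, a subunit of the AP-1 transcription factor, has a GGACT at 70698976 on the plus strand of chromosome 8, 28 nt from the 5′ end, listed by DiffErr and by m6Anet and xPore in KO. Pgrmc1, a heme-binding membrane protein, and Psrc1, a spindle protein, had theirs at 33 nt and 25 nt. Hnrnpf, a splicing regulator, added a GGACT 24 nt from the 5′ end that Nanocompore listed, in an exon of 45 nt.

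The exon of the start codon separated the comparison lists from the WT and KO lists, while the first exon did not. The first exon held 75.3% of the WT positions (73.9% to 76.6%), 75.1% of the KO positions and 26 of the 30 comparison positions (70.3% to 94.7%), against 77.1% of the RRACH positions. The interval of the comparison rate in the first exon minus that outside held 0 (−0.0496 to 0.134 points). The same difference was −1.53 points in WT (−2.61 to −0.492) and −1.50 points in KO (−2.52 to −0.507). The exon of the start codon held 66.8% in WT (65.3% to 68.2%), 62.7% in KO (61.1% to 64.3%) and 28 of 30 in the comparison (93.3%, 78.7% to 98.2%), against 60.8%. The rate in that exon exceeded the rate in exons before it by 3.86 points in WT (2.98 to 4.72), by 1.08 points in KO (0.233 to 1.92) and by 0.155 points in the comparison (0.0810 to 0.234). The comparison rates behind the last value were 0.175% and 0.0194%. The positions of Rpl35a and Eef1a1 lie in exon 2, in the exon of the start codon, and each is 11 nt from a junction.

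Distance to an exon junction went with lower rates in WT and KO lists and not in comparison lists. WT lists held 19.7% of RRACH positions within 50 nt of the nearest junction (18.8% to 20.8%), 18.8% between 50 and 100 nt, 16.7% between 100 and 200 nt and 10.9% beyond 200 nt (10.3% to 11.5%). KO lists held 19.5% within 50 nt (18.5% to 20.5%) and 8.70% beyond 200 nt (8.17% to 9.26%). In comparison lists the rates were 0.0486% within 50 nt (3 positions, 0.0165% to 0.143%) and 0.166% beyond 200 nt (17 positions, 0.104% to 0.266%). Over 100 nt from a junction the rate was −5.96 points from the rest in WT (−6.87 to −5.05), −7.12 points in KO (−7.99 to −6.25) and 0.0837 points in the comparison (−0.000931 to 0.165), where the interval holds 0. The rest includes 672 RRACH positions on transcripts of 1 exon, which have no junction and hold 3 of the 30 comparison positions. Over transcripts with a junction, a choice made after seeing the data, the differences were −6.49 points in WT (−7.43 to −5.57), −7.78 points in KO (−8.69 to −6.89) and 0.109 points in the comparison (0.0298 to 0.187), with 23 positions of 15510 listed over 100 nt away and 4 of 10166 nearer. Over all coding transcripts, with or without a listed position, the differences shrank to −0.806 points in WT and −1.22 in KO, by a larger factor than the rates themselves. The same positions differ in exon and transcript length, whose part was not tested: the median exon was 281.0 nt for WT positions, 264.0 nt for KO and 438.0 nt for the comparison, and the median transcript was 2603.0, 2532.0 and 1812.0 nt.

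Short transcripts had higher rates in all 3 kinds of list, and short 5′ UTRs had higher rates in WT and KO lists. In WT lists the rate fell from 30.0% on transcripts of up to 1000 nt (27.4% to 32.8%) to 9.97% on those over 4000 nt (9.37% to 10.6%), in KO lists from 26.1% (23.6% to 28.8%) to 7.97% (7.42% to 8.55%) and in comparison lists from 0.723% (8 positions, 0.367% to 1.42%) to 0.0114% (1 position). By 5′ UTR length it fell in WT from 21.8% at up to 100 nt (19.9% to 23.9%) to 9.35% over 800 nt (8.47% to 10.3%) and in KO from 19.1% (17.3% to 21.1%) to 7.02% (6.25% to 7.88%). The comparison lists held 0.0607% at up to 100 nt (1 position), 0.143% between 100 and 200 nt, 0.187% between 200 and 400 nt and 0 of 3817 positions over 800 nt (0% to 0.101%).

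Sequence also separated the lists. GGACT made up 16 of the 30 comparison positions (53.3%, 36.1% to 69.8%), 15.9% of the WT positions (641 of 4043) and 13.8% of the KO positions (12.7% to 14.9%), against 10.9% of the RRACH positions of 5′ UTRs. The same order held in the other regions. In the coding sequence the shares were 28.7%, 11.4% and 9.76%, against 7.46% of RRACH positions. In the 3′ UTR they were 37.3%, 12.5% and 9.46%, against 6.99%. Of the GGACT positions of 5′ UTRs 22.3% were listed in WT (20.8% to 23.8%), 17.2% in KO (15.8% to 18.6%) and 0.556% in the comparison (0.342% to 0.901%). These exceeded the other 5-mers by 7.78 points (6.23 to 9.40), 3.99 points (2.59 to 5.47) and 0.496 points (0.279 to 0.842). MINES reports 4 of the 12 5-mers alone by its design, AGACT and the 3 that begin with GGAC, and all but 1 of its 434 positions in WT and all 375 in KO had one of these 5-mers. Without MINES, an alternative chosen after seeing the data, the excess of GGACT was 7.87 points in WT (6.32 to 9.48) and 4.07 in KO (2.68 to 5.55). GGACA was close behind in WT, at 22.2%, and highest in KO, at 21.5% (576 of 2676), or 21.4% and 20.5% without MINES, and the lowest rates were those of AAACA, at 8.10% and 6.79%.

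Within each 5-mer the 5′ UTR remained below the coding sequence in WT lists. For GGACT the difference was −17.7 points (−19.3 to −16.0) and for GAACA, the smallest of the 12, −6.27 points (−7.85 to −4.49). In comparison lists GGACT was listed at 0.556% in 5′ UTRs, 1.66% in the coding sequence and 4.95% in 3′ UTRs, and the difference from the coding sequence was −1.11 points (−1.39 to −0.722). By tool, GGACT made up 31.3% of the m6Anet positions in WT (27.6% to 35.3%) and 35.8% in KO (31.4% to 40.4%). For ELIGOS it was 23.0% in WT (16.4% to 31.2%) and 6.67% in KO (2.62% to 15.9%), and for xPore 28.0% (20.1% to 37.5%) and 6 of 60 (4.66% to 20.1%).

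Flanks of WT and KO positions were richer in GC than those of RRACH positions at large. Within 10 nt of the adenosine the median GC content was 61.9% in WT and in KO and 59.5% in the comparison, against 57.1% of RRACH positions. With a limit of 60% GC, set after seeing the data, the WT rate was 18.2% at or above it and 13.2% elsewhere, a difference of 5.02 points (4.13 to 5.91), and in KO it was 4.31 points (3.47 to 5.17), while the interval of the comparison lists held 0 (−0.0515 to 0.126). A homopolymer of at least 5 equal bases within 10 nt was found at 5.61% of the WT positions (4.95% to 6.37%), 5.63% of the KO positions (4.93% to 6.44%) and 6.54% of the RRACH positions. Positions 3′ of an upstream ATG, which can open an upstream reading frame, made up 51.9% in WT (50.4% to 53.4%), 51.6% in KO and 15 of the 30 in the comparison, against 56.8% of RRACH positions. Their rate was −3.02 points from that of the other positions in WT (−3.91 to −2.13).

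Most genes had few 5′ UTR positions. Of the 3015 genes, 1828 had 1 position, 642 had 2, 419 had 3 or 4, 118 had 5 to 9 and 8 had 10 or more. A WT list held a 5′ UTR position of 2410 genes, or 23.9% of the 10064 genes with a listed position on a coding transcript, a KO list of 2226 (22.1%) and a comparison list of 26 (0.258%). A 5′ UTR position of 1621 genes was in both a WT and a KO list. Of the 2410 genes in WT, 789 had none in a KO list (32.7%, 30.9% to 34.6%), against 11.3% of genes in the coding sequence, 13.7% in the 3′ UTR and 9.24% over all regions. Of the 2226 in KO, 605 had none in a WT list (27.2%, 25.4% to 29.1%), against 11.6%, 11.5% and 10.5%. These shares are not matched for the number of positions, which was 1.77 per gene in the 5′ UTR, 9.74 in the coding sequence and 6.76 in the 3′ UTR.

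Noct, which encodes nocturnin, a protein of the deadenylase family with circadian expression in many tissues, had the most positions by this placement. On the plus strand of chromosome 3, 58 of its 5′ UTR positions were listed in WT, 62 in KO and 0 in a comparison list, and all 58 were among the KO positions. They lie between 51240438 and 51244949, in the first exon, of 7869 nt, of ENSMUST00000144826, a transcript whose annotated 5′ UTR is 7607 nt long and holds 117 RRACH positions. The 62 positions rest on this 1 transcript model, and the 5′ UTRs of the other 3 coding transcripts of Noct are 657, 634 and 453 nt long. Which of them these cells make was not tested. Its GGACC at 51241528 was listed by 6 tools in WT and 5 in KO.

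The other genes with many positions had shorter 5′ UTRs and differed in how many KO lists held. Tor1aip2 had 15 in WT and 5 in KO over 37 RRACH positions, and St3gal2, a sialyltransferase, had 11 in WT and 1 in KO over 17. Pigyl had 12 in WT and 8 in KO over 14, and Jam2, a junctional adhesion molecule, 10 and 9 over 13. The zinc finger genes Zfp30 and Zfp57, of which Zfp57 maintains genomic imprints, had 10 and 9 in WT and 7 and 9 in KO, and the protease gene Ddi2 had 8 in WT and 4 in KO. Of these 8 genes Pigyl alone had a 5′ UTR position in a comparison list.

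Genes with known regulatory upstream reading frames were looked at as a list. Of 10, all with a listed position somewhere, 7 had a 5′ UTR position in WT (70.0%, 39.7% to 89.2%), against 23.9% over all genes, and 8 had one in KO (49.0% to 94.3%), against 22.1%. These shares are not matched for 5′ UTR length, which is 1099 nt for Slc35a4, 764 nt for Ppp1r15a and 594 nt for Atf4. Amd1 (ENSMUSG00000075232), the S-adenosylmethionine decarboxylase of polyamine synthesis, whose upstream reading frame encodes a short peptide that stalls ribosomes, had 5 positions in WT, 5 in KO and 2 in a comparison list. Its AGACT at 40302110 on the minus strand of chromosome 10, 77 nt from the 5′ end, was listed by DiffErr, Nanocompore and 5 WT lists and by Nanom6A and xPore in KO. The AGACT at 40302079, 108 nt from the 5′ end, was listed by Nanocompore and 3 WT lists and by no tool in KO. Slc35a4 had 5 positions in WT and 3 in KO, Ifrd1 had 3 and 1, Ppp1r15a and Azin1 each had 2 and 1, and Ppp1r15b had 0 and 1. Atf4, the effector of the integrated stress response, had 1 in each, as did Odc1. Both Amd1 runs lie in exon 1, with the AGACT in capitals, and are shown as the listed sites of a 5′ UTR with a known regulatory reading frame.
Amd1 at 40302100 to 40302120: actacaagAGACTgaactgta
Amd1 at 40302069 to 40302089: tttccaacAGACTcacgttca

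Translation factors and ribosomal protein genes held 3 further genes with a 5′ UTR position in a comparison list. The lists were drawn up by gene symbol, so that of translation initiation factors also holds the kinase Eif2ak1 and the inhibitor Eif4ebp1, and that of ribosomal proteins also holds Rps19bp1. Of 55 translation initiation factor genes with a listed position, 16 had a 5′ UTR position in WT (29.1%, 18.8% to 42.1%) and 12 in KO (21.8%, 12.9% to 34.4%), near the 23.9% and 22.1% over all genes. Pabpc1, the cytoplasmic poly(A)-binding protein, had 6 in each library, and Nanocompore listed an AGACC at 36608717 on the minus strand of chromosome 15, 257 nt from the 5′ end. Eif1ad had 4 in WT and 7 in KO, Eif5 had 5 and 3, and Eif4g1, the scaffold of the cap-binding complex, had 3 and 0. Of 96 genes of the ribosomal protein and elongation factor list, most of which carry a terminal oligopyrimidine tract at the cap, 38 had a 5′ UTR position in WT (39.6%, 30.4% to 49.6%) and 33 in KO (34.4%, 25.6% to 44.3%), against 23.9% and 22.1% over all genes.

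In that list Nanocompore held 1 position each of Rpl35a, a GAACA at 33057147 on the plus strand of chromosome 16, 21 nt before the start codon, and of Eef1a1, an AAACC at 78480677 on the minus strand of chromosome 9, 23 nt before the start codon. Nanom6A listed both in WT and in KO. Rps2 had 4 positions in each library, 1 of them a position of Nanom6A outside RRACH, and Rpl18 had 2 in WT and 4 in KO. These genes are short and abundant, and neither length nor level was matched in the comparison with all genes. Their annotated 5′ UTRs under this placement ranged from 31 nt for Rpl37a to 616 nt for Rps25 and 2375 nt for Rpl18. Which transcripts of these genes the cells make was not tested.

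Stem cell factors and m6A genes had 5′ UTR positions in WT and KO lists. The stem cell transcription factor list also holds genes of other kinds, such as the signalling gene Tdgf1. Of its 20 genes with a listed position, 9 had a 5′ UTR position in WT (45.0%, 25.8% to 65.8%) and 8 in KO (40.0%, 21.9% to 61.3%). Over all genes the shares were 23.9% and 22.1%, of which the KO interval holds the second. Zfp42, a marker of naive cells also known as Rex1, had 5 in each, Klf4 had 3 in WT and 1 in KO, and Nanog and Pou5f1 had 1 in each. Of the 17 m6A writer, reader and eraser genes, 5 had one in WT (29.4%, 13.3% to 53.1%) and 2 in KO (11.8%, 3.29% to 34.3%), and these intervals hold the 23.9% and 22.1% over all genes. Alkbh5 had 2 in WT and 0 in KO, Wtap, Mettl14 and Ythdc1 each had 1 and 0, Pcif1 had 1 and 2, and Ythdf2 had 0 and 1.

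Heat shock and chaperone genes, in which 5′ UTR m6A has been studied under stress, made up the last list. Of 13 with a listed position, 4 had one in WT (30.8%, 12.7% to 57.6%) and 6 in KO (46.2%, 23.2% to 70.9%), against 23.9% and 22.1% over all genes. The WT interval holds the share over all genes, and the KO interval lies just above it. Hspa5, the chaperone of the endoplasmic reticulum, had 6 in WT and 5 in KO. Hspa8 had 1 and 0, and Hspb1, Hspd1 and Hsph1 each had 0 in WT and 1 in KO. None of the stem cell, m6A or heat shock genes had a 5′ UTR position in a comparison list, which, with 0.258% of all genes having one, says nothing of lists this short.

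Other genes with a 5′ UTR position in a comparison list served varied functions. Ftl1, the ferritin light chain, whose 5′ UTR holds an iron-responsive element, had 3 positions: a GGACC at 45459679, 48 nt before the start codon, listed by Nanocompore and DRUMMER, a GAACA at 45459780 listed by DiffErr, and an AGACC at 45459776 listed by Nanocompore. All 3 lie on the minus strand of chromosome 7, and Nanom6A listed each in WT and in KO. Klf9, a Krüppel-like transcription factor, had a GGACT at 23141418 on the plus strand of chromosome 19, the farthest of the 30 from the start codon at 337 nt. Sap30, of the Sin3 histone deacetylase complex, Asf1a, a histone chaperone, Gadd45b, a stress sensor, and Prdx4, a peroxidase of the endoplasmic reticulum, each had 1 GGACT listed by Nanocompore, as did Ndufb11, a subunit of respiratory complex I. Cct4, a chaperonin subunit, Acp6, a lysophosphatidic acid phosphatase, and Degs1, a ceramide desaturase, each had 1 position outside GGACT.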

How the data were processed

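Poly(A) RNA of each library went through the SQK-RNA002 kit and a FLO-MIN106 flow cell. According to the study's methods, the reads were basecalled and aligned to a GENCODE transcriptome, and the positions called by the 10 tools were turned into genome positions. The submitters' notes name the build mm10 (GRCm38). Each line of the deposited lists gives a genome base, its strand and, except for Nanom6A, which gives a gene name, a transcript and the position on it. No read number, score or rate is given, and the cut-off behind each list is not stated with it. The study's methods describe a cut-off per tool, chosen by how well its sites matched published m6A sites, and a minimum number of reads. The WT lists of Tombo and Epinano held 75219 and 44559 positions, more than the study reports for any tool at its cut-offs. These lists therefore do not match the sites counted there, and which settings the deposited lists follow was not tested.

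All that follows was computed for this report. Positions of 17 lists were merged and placed with GENCODE M21, a later release than that of the authors for the same build, and bases were read from the GRCm38 genome. Where a list named the placing transcript of a 5′ UTR position, its transcript position was the same base in 97.4% of 7306 lines. Of the 5333 positions, 5327 had an RRACH 5-mer on the spliced transcript. Shares have Wilson intervals, differences Newcombe intervals and ratios of counts exact binomial intervals, with code tested on simulated data. Software was pysam 0.24.0, scipy 1.17.1, pandas 2.3.3 and numpy 2.4.6 under Python 3.11.15.

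Genes were named by rule: the 10 positions with most tools in WT or the comparison and none in KO, the 5 with most tools in KO, those of all 3 comparison tools, the 5 with most tools within 50 nt of the 5′ end and the 5 within 20 nt of the start codon, the 8 genes with most WT or comparison positions, and list genes in a comparison list, with ties in genomic order. Some positions under these rules are not reported here. Other genes of the comparison lists and other members of the gene lists were named after their values were seen, and the bins of distance and length and the counts without positions shared by both lists of a tool were set after seeing the data. The members and lists were chosen with earlier results of these data known.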

Additional observations from a re-analysis of the deposited data

How the results depend on the processing

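The 110 values of the main comparisons were computed again under alternative settings, 504 times in all. Of these, 377 gave the same result. That means within the 95% interval of the value reported or, for counts of positions, within 1.5 times of it. A further 125 moved more. The other 2 turned their sign from a reported value whose interval left out 0, and both turned values lie within counting error of no difference. The cause was not tested in any case. Differences are in percentage points. Rates by single tool, bins, gene counts, the overlap as a share of KO lists, and the shares for KO lists alone and for support by several tools were not computed again. Depth per position is unknown, so a limit on coverage could not be tried. No paired analysis was possible because each group has 1 library.

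Keeping only positions 5′ of the start codon on every coding transcript, run for all 110 values, moved none. Nor did the settings run for fewer: the transcript the list names (counts of positions), RRACH on the genome (counts and KO to WT ratios), leaving out exons of several genes (these, the share listed again and the share in a comparison list) and joining positions within 5 bp (counts and the share listed again). Without Tombo there were 3383 positions in all, 2657 in WT and 1891 in KO. Listing rates were then 10.1% in WT (−7.28 from the coding sequence, −8.11 from the 3′ UTR) and 7.17% in KO (−5.13, −3.98), and the share in a comparison list was 1.13% (−1.35, −3.94). With 1 position per line there were 11090 in all and 6123 in WT.

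On transcripts of at most 1500 nt the listing rates were 24.8% in WT (−23.6 from the coding sequence, −29.5 from the 3′ UTR), 23.0% in KO (−20.1, −20.4) and 0.331% in the comparison (−1.41, −4.83). KO to WT ratios were 0.700 for MINES and 0.508 for Epinano. The share listed again was 65.2% for Tombo (−8.36 from the coding sequence), 46.8% for m6Anet (19.1 from the 3′ UTR), 28.4% for Epinano (8.14, 8.05) and 56.5% for xPore (38.4 from the 3′ UTR), and the differences were −21.0 and −7.38 for MINES and −4.33 and 5.21 for Nanom6A. The share in a comparison list was 1.33% (−2.28, −8.16). Within 50 nt of the start codon lay 42.5% of WT, 44.2% of KO and 54.5% of comparison positions (rate inside minus outside 15.3, 16.0 and 0.397), within 100 nt 67.2% and 70.2% (14.9 and 16.5). Within 50 nt of the 5′ end lay 20.8% of WT and 20.3% of KO positions (−8.20, −8.29, comparison −0.305), within 100 nt 45.3% and 46.0% (−4.27, −3.34, comparison −0.416).

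Over all coding transcripts the listing rates were 4.36% in WT (−8.14, −6.52), 3.87% in KO (−7.00, −4.61) and 0.0324% in the comparison (−0.174, −0.382). Rates inside minus outside were, in WT and KO, 4.63 and 4.43 within 50 nt of the start codon, 4.16 and 3.81 within 100 nt, −2.02 and −1.67 within 50 nt of the 5′ end, −0.300 and −0.305 for the first exon, −0.806 and −1.22 over 100 nt from a junction, 3.19 and 1.90 for GGACT (comparison 0.164) and −1.93 and −1.77 after an upstream ATG. They were −1.08 within 100 nt of the 5′ end in WT, 2.83 for the exon of the start codon in WT and 0.0554 in the comparison, and −0.625 for homopolymers in WT.

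Chosen after seeing the data were a limit of 1000 nt from the 3′ end, the leaving out of Noct and, for the distance to a junction, of transcripts of 1 exon, which kept the values within their intervals, although the comparison difference of 0.109 then had an interval that left out 0. Within 1000 nt the listing rates were 26.8% in WT (−16.2, −3.61), 23.6% in KO (−14.2, −0.741) and 0.452% in the comparison (−0.729 from the coding sequence). Without Noct, run for the distance, exon and junction, and 5-mer and flank results alone, none of these moved, nor did the 5-mer and flank results without MINES, which was also chosen then, as was the limit of 60% GC.

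With a window of 25 nt in place of 50, the share near the start codon was 18.9% in WT, 19.3% in KO (rate difference 10) and 13.3% in the comparison, and near the 5′ end 4.28% in WT (−8.39) and 4.35% in KO (−7.29). With 200 nt in place of 100, it was 79.4%, 79.5% and 80.0% near the start codon and 59.2%, 59.3% and 66.7% near the 5′ end. The rate differences near the 5′ end were then 0.700 in WT and 0.699 in KO, within counting error of no difference. Over 50 nt from a junction lay 68.0% of WT (−4.77) and 65.0% of KO positions, and over 200 nt 27.7% of WT (−7.20), 24.9% of KO (−8.02) and 56.7% of comparison positions. Homopolymers of at least 4 lay near 25.5% of WT, 26.3% of KO and 30.0% of comparison positions. With GC taken over 25 nt on either side, 55.0% of WT and 55.5% of KO positions (5.39) reached 60%.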
